A study of Mus musculus with 8 samples.

Results

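The Bcl2 family genes Bcl2, Bcl2l1, Mcl1, Bax, Bak1, Bcl2l11, Bbc3, Pmaip1 and Bid and the TRAIL receptor gene Tnfrsf10b were followed in mouse hematopoietic stem and progenitor cells cultured with or without red blood cells (RBCs). They were taken by gene symbol and make up 10 of the 24346 genes listed in every library. RNA was sequenced from HSCs (Lin- Sca-1+ c-Kit+ CD48- CD150+) and from LSK cells (Lin- Sca-1+ c-Kit+), a wider gate that also contains HSCs and consists largely of multipotent progenitors. Both were isolated from bone marrow of wild-type adult mice and kept for 1 day in culture medium, alone or on RBCs that had been depleted of leukocytes by filtration and irradiated. CD45+ cells were sorted again before RNA extraction in all 4 groups, and each group had 2 libraries. The labels give no age, sex or animal for a library and do not say whether the 2 libraries of a group came from separate cultures. The p-values therefore measure the spread between these libraries, which may be technical.

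Proteins of the Bcl2 family control the permeability of the outer mitochondrial membrane. Survival members (Bcl2, Bcl2l1, Mcl1) hold the effectors Bax and Bak1 in check, and BH3-only members (Bcl2l11, Bbc3, Pmaip1, Bid), which are induced or activated by stress, bind the survival members or activate the effectors directly. Tnfrsf10b binds TRAIL and starts caspase 8 cleavage of Bid, which links the receptor to mitochondria. In hematopoietic stem cells, Mcl1 in particular is needed for survival.

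Levels are given as FPKM (fragments scaled by transcript length and library size), so that genes can be compared with each other within a library. Across the 8 libraries, the values summed to between 680942 and 752107 and 14829 to 16551 genes were above 0. The absolute depth is unknown, and the relative depth, read from genes with low values, lay between 0.886 and 1.13. Pearson's r between the libraries of a group was 0.979 to 0.983 across genes, which are not independent replicates. Of the sorted markers, Cd48, which HSCs were sorted to lack, was at 16.0 to 42.7 FPKM in the HSC libraries and at 124 to 184 FPKM in the LSK libraries, and Slamf1 (CD150), which they were sorted to carry, at 5.5 to 10.7 and 3.09 to 4.63 FPKM. Of 9 listed genes of the HSC and LSK gates, 3 were higher and 3 lower in LSK cells without RBCs past the adjusted p, and 5 and 3 with RBCs. In HSCs, 4 of the 9 also differed with RBCs, Cd34 being higher and Cd48, Kit and Procr lower, and none of the 9 passed in LSK cells. Differences were tested with limma on log2(FPKM + 1) over 12003 genes that reached 1 FPKM in 2 or more libraries, and all 10 genes passed this filter. Fold changes from the test are ratios of FPKM + 1, and on this scale the changes of low genes are understated. Calls required an adjusted p under 0.05 and a change of 2-fold or more, and genes past the adjusted p at any fold were counted as well.

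Promoters of Pmaip1 and Tnfrsf10b were not examined. Promoters of the other 8 of the 10 genes were taken from the RefSeq table for GRCm38.p6. Of these, 4 are printed: Bcl2 and Bcl2l1, the survival genes that differed in opposite directions between LSK cells and HSCs, and Bbc3 and Bid, BH3-only genes that were higher in LSK cells in both cultures. Bax and Bcl2l11, which also differed, are described by their motifs. Each window runs from 250 bases before the most upstream start in that table to 50 bases after it and is written 5′ to 3′ on the strand of the gene. Capitals mark GC boxes, GGGCGG read on either strand.
Bcl2, chr1:106714241-106714540, minus strand: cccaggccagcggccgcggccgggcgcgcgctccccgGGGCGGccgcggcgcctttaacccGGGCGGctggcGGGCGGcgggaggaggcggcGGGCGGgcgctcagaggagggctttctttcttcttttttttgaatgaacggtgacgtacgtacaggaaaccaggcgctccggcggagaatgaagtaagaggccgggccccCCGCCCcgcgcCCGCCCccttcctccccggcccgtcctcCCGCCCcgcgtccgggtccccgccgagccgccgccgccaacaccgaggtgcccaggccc
Bcl2l1, chr2:152831679-152831978, minus strand: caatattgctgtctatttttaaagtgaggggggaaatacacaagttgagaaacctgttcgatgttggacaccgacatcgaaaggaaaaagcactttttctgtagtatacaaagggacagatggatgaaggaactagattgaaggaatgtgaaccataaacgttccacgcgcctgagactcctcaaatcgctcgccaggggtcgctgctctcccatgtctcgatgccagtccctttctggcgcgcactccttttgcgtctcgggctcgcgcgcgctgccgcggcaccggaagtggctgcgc
Bbc3, chr7:16309333-16309632, plus strand: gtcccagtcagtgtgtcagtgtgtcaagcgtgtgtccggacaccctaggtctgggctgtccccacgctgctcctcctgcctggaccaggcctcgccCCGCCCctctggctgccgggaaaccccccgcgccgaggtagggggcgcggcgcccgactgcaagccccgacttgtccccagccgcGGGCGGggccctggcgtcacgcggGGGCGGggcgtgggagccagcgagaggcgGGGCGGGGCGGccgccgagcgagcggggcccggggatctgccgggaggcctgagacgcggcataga
Bid, chr6:120916775-120917074, minus strand: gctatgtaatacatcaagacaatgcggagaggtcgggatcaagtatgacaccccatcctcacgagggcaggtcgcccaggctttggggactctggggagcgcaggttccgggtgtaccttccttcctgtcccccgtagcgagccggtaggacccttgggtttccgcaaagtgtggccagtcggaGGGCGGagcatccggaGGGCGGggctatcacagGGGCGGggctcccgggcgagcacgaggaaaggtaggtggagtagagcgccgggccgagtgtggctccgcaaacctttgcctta
The Bcl2 window held 7 GC boxes, the Bbc3 window 5, of which the last 2 share a base, and the Bid window 3, while the Bcl2l1 window held none. GC content was 76.0% for Bcl2 and Bbc3, 63.3% for Bid and 52.3% for Bcl2l1. A GC box occurred in 35.7% of all 32851 promoter windows of this length. The windows of Mcl1, Bax and Bcl2l11 held 1, 3 and 3 GC boxes and that of Bak1 none. The other motifs searched on both strands were the CCAAT box (in 37.4% of all windows), the E-box with the letters CACGTG (7.15%), the TATA box with the letters TATAAA (13.6%), the forkhead motif with the letters GTAAACA (3.65%), the STAT motif with the letters TTCNNNGAA (8.3%) and the p53 response element monomer (8.36%). Among the 8 genes, Bax held the E-box 2 times and the p53 element 1 time, and Bcl2l11 held the CCAAT box and the forkhead motif 1 time each. Matches describe letters in these windows. The GENCODE gene of Bbc3 begins at 16308393, upstream of its window, which thus lies inside that gene. The window of Bak1, 27028578 to 27028877 on the minus strand, also lies inside its gene, which extends to 27029009.

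Of the 10 genes, the BH3-only genes Bbc3, Pmaip1 and Bid and the effector Bax were higher in LSK cells than in HSCs in both cultures, whereas Bcl2l1 was lower. Bcl2 and Bcl2l11 were higher in LSK cells in both cultures and passed the test with RBCs, and the difference between cultures was itself tested below. Between cultures with and without RBCs, none of the 10 genes passed the test in HSCs, where the intervals of Pmaip1 and Bid nevertheless lay off 0, and Pmaip1 alone passed in LSK cells, where it rose 2.02-fold. The levels in bulk RNA cannot tell apart fewer cells of a type from less RNA per cell. In LSK cells against HSCs without RBCs, 2 of the 10 genes were called, where the call covered 2.66% of all genes tested, and 5 passed the adjusted p at any fold, against 14.2% of all genes. With RBCs, 1 of 10 was called (3.61% of all genes) and 7 of 10 passed at any fold (24.4% of all genes). These counts depended on single libraries. At any fold without RBCs, 1707 of all genes became 981 and 834 without the first and second LSK library and 1030 without the second HSC library of that culture, and 3 of the 10 genes were left without the second LSK library. With RBCs, 2923 became 1695 and 1401 without the first and second LSK library and 1478 and 1671 without the first and second HSC library of that culture, with 5 of the 10 genes left each time.

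**Figure D1:**
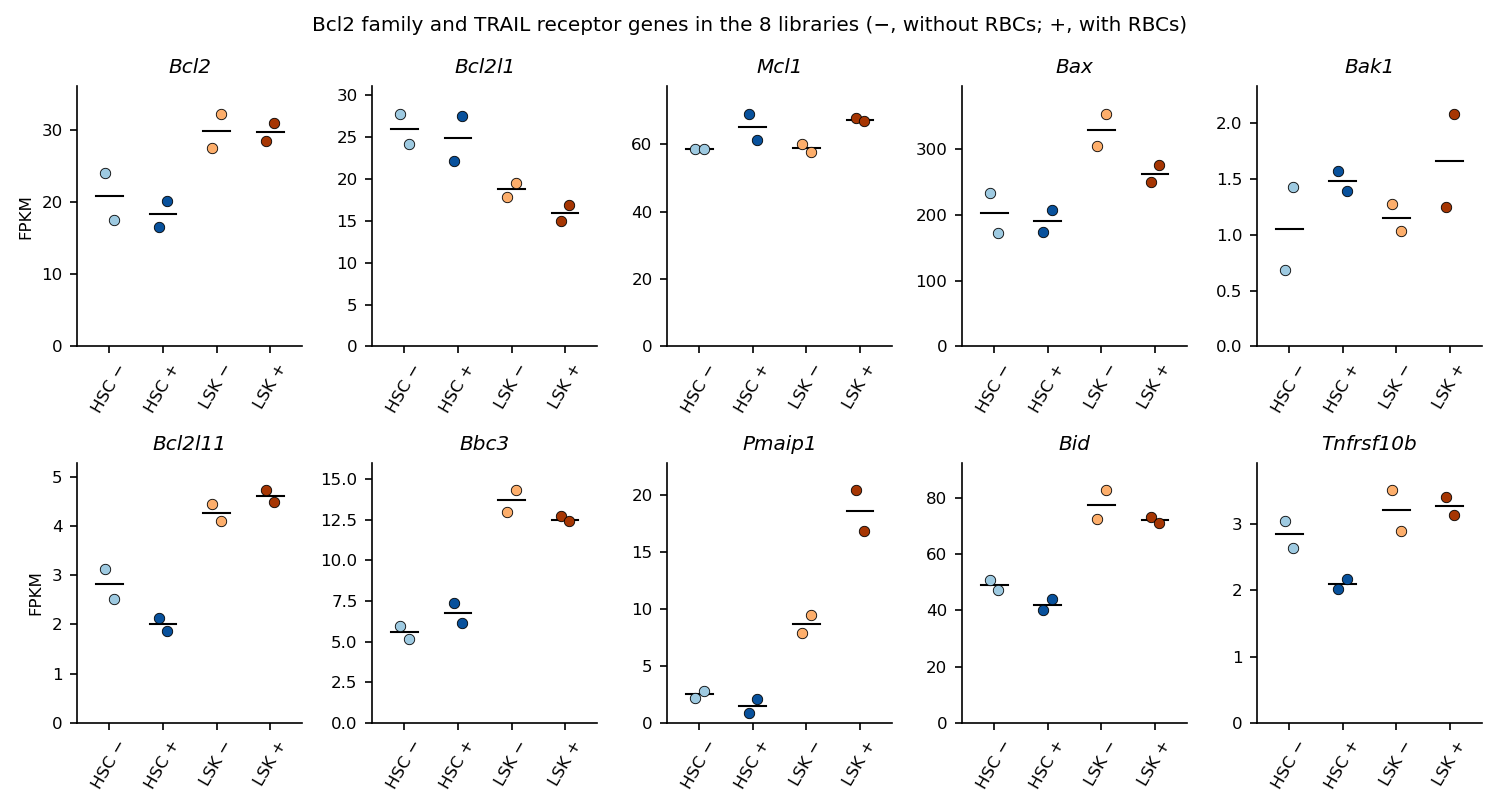
FPKM of each of the 10 genes in the 8 libraries (points, coloured by group) with the mean of the 2 libraries of a group (line); minus and plus mark cultures without and with RBCs, and each panel starts at 0. Bbc3, Bid and Pmaip1 lie higher in all 4 LSK libraries than in all 4 HSC libraries, and Pmaip1 is highest in the LSK libraries with RBCs, at 20.4 and 16.8 FPKM.

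Among the survival genes, Bcl2 and Bcl2l1 moved in opposite directions between the cell types while Mcl1 stayed within a narrow range. Bcl2 (chromosome 1, 106538178 to 106714274, minus strand, GRCm38 with GENCODE M21) encodes the founding survival protein, and the antisense gene D630008O14Rik overlaps it. Its FPKM was 24.0 and 17.5 in HSCs without RBCs, 16.6 and 20.2 in HSCs with RBCs, 27.5 and 32.2 in LSK cells cultured alone and 28.4 and 30.9 in LSK cells on RBCs. All 4 LSK libraries thus lay above all 4 HSC libraries. Bcl2 was 1.59-fold higher in LSK cells with RBCs (log2 0.67, SE 0.155, adjusted p = 0.014), and the difference without RBCs, 0.52 (95% interval 0.17 to 0.87, adjusted p = 0.058), missed the threshold. Without the first HSC library cultured alone, the latter became 0.74, and without the second it became 0.30. With RBCs, adjusted p rose to 0.097 without the first HSC library and to 0.092 without the second LSK library.

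Bcl2l1 (chromosome 2, 152780668 to 152831728, minus strand) encodes Bcl-xL, the survival protein on which late erythroid cells and platelets depend. It stood at 27.7 and 24.1 FPKM in HSCs without RBCs, 22.1 and 27.4 in HSCs with RBCs, 17.8 and 19.5 in LSK cells cultured alone and 15.0 and 16.9 in LSK cells on RBCs. Each HSC library was above each LSK library. The log2 difference of LSK cells from HSCs was -0.45 without RBCs (SE 0.127, adjusted p = 0.044) and -0.60 with RBCs (SE 0.127, adjusted p = 0.0091). The first of these did not hold without either LSK library cultured alone (adjusted p = 0.18 and 0.10), without either HSC library cultured alone (0.17 and 0.065) or without either LSK library with RBCs (0.060 and 0.061). The second was lost without the first LSK library with RBCs (0.065) and without the second HSC library with RBCs (0.071). Of 6 tested genes of RBCs, 0 passed between the cell types without RBCs and 2 were called lower in LSK cells with RBCs. Hbb-b2, by far the most abundant of them without RBCs, was at 279 and 335 FPKM in HSCs and 109 and 173 FPKM in LSK cells. Genes of platelets and megakaryocytes (7 of 7 present) summed to 203 to 243 FPKM in the HSC libraries and 96.8 to 215 in the LSK libraries, which overlapped, and 1 of the 7 was lower in LSK cells in each culture past the adjusted p. Their part in the Bcl2l1 difference was not tested.

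Mcl1 (chromosome 3, 95658788 to 95663176, plus strand), a short-lived survival protein, ranged over only 57.7 to 69.0 FPKM. Without RBCs its values were 58.5 and 58.7 FPKM in HSCs and 60.1 and 57.7 in LSK cells. With RBCs they were 69.0 and 61.4 in HSCs and 67.7 and 66.8 in LSK cells. Each of the 4 libraries with RBCs was above each of the 4 libraries without, which held for 5.23% of all genes tested and for Mcl1 alone among the 10. The log2 difference with RBCs was 0.15 in HSCs (95% interval -0.02 to 0.32, adjusted p = 0.45) and 0.19 in LSK cells (0.02 to 0.36, adjusted p = 0.22). Averaged over both cell types, a comparison added after the data had been seen, it was 0.17 (adjusted p = 0.12), so that it did not pass the test. Between cell types, the log2 difference was 0.01 without RBCs (-0.16 to 0.18, adjusted p = 0.97) and 0.05 with RBCs (-0.12 to 0.22, adjusted p = 0.70).

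The 2 effector genes differed in level by a factor of 111 to 343. Bax (chromosome 7, 45461697 to 45466898, minus strand) was the most abundant of the 10 genes in every library. It was at 233 and 173 FPKM in HSCs without RBCs, 174 and 207 in HSCs with RBCs, 305 and 353 in LSK cells cultured alone and 249 and 275 in LSK cells on RBCs. The 4 LSK libraries were all above the 4 HSC libraries. Bax was 1.63-fold higher in LSK cells without RBCs (log2 0.70, SE 0.14, adjusted p = 0.011) and 1.38-fold higher with RBCs (log2 0.46, SE 0.14, adjusted p = 0.040). The first was lost without the second LSK library cultured alone (adjusted p = 0.08). The second was lost without either LSK library with RBCs (0.087 and 0.20) or either HSC library with RBCs (0.22 and 0.051). In LSK cells both libraries with RBCs were below both without, with a log2 difference of -0.32 (95% interval -0.64 to -0.01, adjusted p = 0.26). The annotation places a further protein-coding gene, Gm45808, over Bax on the same strand, and the reads of such overlapping genes may be split.

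Bak1 (chromosome 17, 27019810 to 27029009, minus strand), the other effector, was the lowest of the 10 in 7 of 8 libraries. It was at 0.68 and 1.43 FPKM in HSCs without RBCs, 1.57 and 1.39 in HSCs with RBCs, 1.27 and 1.03 in LSK cells cultured alone and 1.25 and 2.08 in LSK cells on RBCs. The groups overlapped between cell types. From the size of the smallest step between its values, these levels rest on at least 18 to 46 reads per library. The log2 differences with RBCs were 0.30 in HSCs (95% interval -0.23 to 0.82) and 0.29 in LSK cells (-0.23 to 0.82), and those between cell types 0.09 in both cultures, with adjusted p of 0.56 to 0.84. On the scale of FPKM + 1, the intervals allow up to 1.77-fold with RBCs in HSCs and 1.76-fold in LSK cells. For a gene this low, they allow a larger change of the FPKM itself. Bak1 overlaps Ggnbp1 on the other strand, and no source used here says that counting took the strand into account.

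The 4 BH3-only genes were each higher in every LSK library than in every HSC library. Bid (chromosome 6, 120891930 to 120916853, minus strand), the caspase 8 substrate, supplied most of their summed level. It stood at 50.8 and 47.3 FPKM in HSCs without RBCs, 40.3 and 44.0 in HSCs with RBCs, 72.4 and 82.7 in LSK cells cultured alone and 73.1 and 71.1 in LSK cells on RBCs. Bid was 1.57-fold higher in LSK cells without RBCs (log2 0.65, SE 0.0868, adjusted p = 0.0015) and 1.70-fold higher with RBCs (log2 0.76, SE 0.0868, adjusted p = 4.7e-04). Both HSC libraries with RBCs were below both without, with a log2 difference of -0.21 (95% interval -0.41 to -0.02, adjusted p = 0.31). Bid overlaps Bcl2l13 on the other strand.

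Bbc3 (chromosome 7, 16308393 to 16318205, plus strand), which encodes the p53 target Puma, had the lowest adjusted p of the 10 genes without RBCs. It was at 5.98 and 5.19 FPKM in HSCs without RBCs, 7.37 and 6.17 in HSCs with RBCs, 13.0 and 14.3 in LSK cells cultured alone and 12.7 and 12.4 in LSK cells on RBCs. The lowest LSK library was far above the highest HSC library. The gene was 2.23-fold higher in LSK cells without RBCs (log2 1.16, SE 0.131, adjusted p = 6.3e-04) and 1.75-fold higher with RBCs (log2 0.81, SE 0.131, adjusted p = 0.0027).

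Bcl2l11 (chromosome 2, 128126038 to 128162547, plus strand), which encodes Bim, was a low gene of the group. Its FPKM was 3.13 and 2.52 in HSCs without RBCs, 2.14 and 1.87 in HSCs with RBCs, 4.44 and 4.09 in LSK cells cultured alone and 4.72 and 4.49 in LSK cells on RBCs. The HSC libraries were lower with RBCs and the LSK libraries higher, in both cases without overlap. LSK cells exceeded HSCs by 0.47 on the log2 scale without RBCs (95% interval 0.12 to 0.81, adjusted p = 0.077) and, 1.87-fold, by 0.90 with RBCs (SE 0.154, adjusted p = 0.0034). Among the fits that kept all libraries, the first of these passed only without the mean-variance trend (adjusted p = 0.039). With 1 library left out, that difference ran from 0.351 to 0.58 on the log2 scale. With a pseudocount of 0.5 or 0.1 in place of 1, the difference with RBCs reached 1.03 and 1.16 and passed the 2-fold threshold. The difference between the cultures, -0.44 (RBC effect in HSCs minus that in LSK cells, 95% interval -0.93 to 0.05, adjusted p = 0.45), did not pass the test, and for Bcl2 it was -0.15 (-0.65 to 0.34, adjusted p = 0.83).

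Pmaip1 (chromosome 18, 66458533 to 66465565, plus strand) encodes Noxa, the BH3-only protein that binds mainly Mcl1. It had the widest range of the 10 genes relative to its level. In HSCs it was at 2.21 and 2.84 FPKM without RBCs and at 0.903 and 2.09 with RBCs, and in LSK cells at 7.88 and 9.51 when cultured alone and at 20.4 and 16.8 with RBCs. From the steps between its values, these levels rest on at least 80, 84, 29 and 76 reads in the HSC libraries and at least 253, 340, 580 and 507 in the LSK libraries. Both pairs of HSC libraries and both pairs of LSK libraries were apart, in opposite directions. Pmaip1 was 2.75-fold higher in LSK cells than in HSCs without RBCs (log2 1.46, SE 0.23, adjusted p = 0.0037) and 8.05-fold higher with RBCs (log2 3.01, 95% interval 2.49 to 3.53, adjusted p = 5.7e-05). Both are ratios of FPKM + 1, which are smaller than those of the FPKM values.

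With RBCs, Pmaip1 rose in LSK cells from 8.69 ± 1.15 to 18.6 ± 2.53 FPKM (SD, n = 2), a log2 difference of 1.01 (95% interval 0.50 to 1.53, adjusted p = 0.048). In HSCs it went from 2.52 ± 0.44 to 1.5 ± 0.84 FPKM, a log2 difference of -0.53 (-1.05 to -0.02, adjusted p = 0.35). The difference between these 2 effects was -1.55 (95% interval -2.28 to -0.82, unadjusted p = 9.7e-04, adjusted p = 0.14), so that an unequal response of HSCs and LSK cells did not pass the test across all genes. The call in LSK cells was close to the threshold. It was lost without the first or second LSK library cultured alone (adjusted p = 0.22 and 0.12), without the first or second LSK library with RBCs (0.23 and 0.16) and without either HSC library cultured alone (0.056 for both), and over all alternatives adjusted p ranged from 0.021 to 0.37. The comparisons share the LSK libraries cultured alone, so that the values of 7.88 and 9.51 FPKM enter both the RBC effect and the difference from HSCs.

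Genes of myeloid cells were higher in the LSK libraries with RBCs, where Pmaip1 was highest. Neutrophil genes (10 of 11 listed genes present) summed to 129 and 221 FPKM in the LSK libraries without RBCs and to 365 and 572 with RBCs, and in HSCs to between 8.54 and 10.6 without and between 46.4 and 254 with RBCs. Monocyte or macrophage genes (7 of 7 present, C1qa at 0 in all libraries) summed to between 70.0 and 81.3 FPKM in LSK cells without RBCs and between 157 and 161 with RBCs. In HSCs they summed to between 89.9 and 115 without and between 110 and 115 with RBCs, mostly from Cd68. Without RBCs, Cd68 was at 85.9 and 107 FPKM in HSCs and 43.8 and 48.6 in LSK cells. Csf1r was at 2.53 and 2.81 FPKM in these HSCs and 14.1 and 22.8 in these LSK cells. Ccr2 was at 0.84 and 0.976 FPKM and at 7.61 and 4.57. Of the 4 tested genes of this list, 2 were higher and 1 lower in LSK cells past the adjusted p in each culture. The neutrophil sum in HSCs with RBCs differed between the libraries. S100a8 was at 148 FPKM in the first and 22.3 in the second, and S100a9 at 87.9 and 11.8. T cell genes summed to at most 1.06 FPKM. NK cell genes summed to 6.35 to 7.6 FPKM in LSK libraries and 0.937 to 1.73 in HSC libraries. Most of the LSK sum was Klrd1, at 4.74 to 5.97 FPKM, while Ncr1, Gzma and Prf1 reached at most 0.962. B cell genes summed to 49.5 to 51.6 FPKM in LSK libraries with RBCs and 34.7 to 41.1 in the others. Most of this was Cd79b, at 34.1 to 51.0 FPKM. The part of other cell types in the Pmaip1 values was not tested.

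Tnfrsf10b (chromosome 14, 69767472 to 69784411, plus strand), the mouse death receptor for TRAIL, was low in every library. Its FPKM was 3.05 and 2.64 in HSCs without RBCs, 2.02 and 2.17 in HSCs with RBCs, 3.51 and 2.90 in LSK cells cultured alone and 3.41 and 3.14 in LSK cells on RBCs, resting on at least 79 to 137 reads. LSK and HSC libraries overlapped without RBCs and did not overlap with RBCs. The log2 difference of LSK cells from HSCs was 0.13 without RBCs (95% interval -0.23 to 0.48, adjusted p = 0.65) and 0.46 with RBCs (0.11 to 0.82, adjusted p = 0.060), and the RBC effect was -0.31 in HSCs (-0.66 to 0.05, adjusted p = 0.45) and 0.03 in LSK cells (-0.33 to 0.38, adjusted p = 0.95). Its ligand gene Tnfsf10 was at 5.43 to 8.26 FPKM and passed no test.

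**Figure D2:**
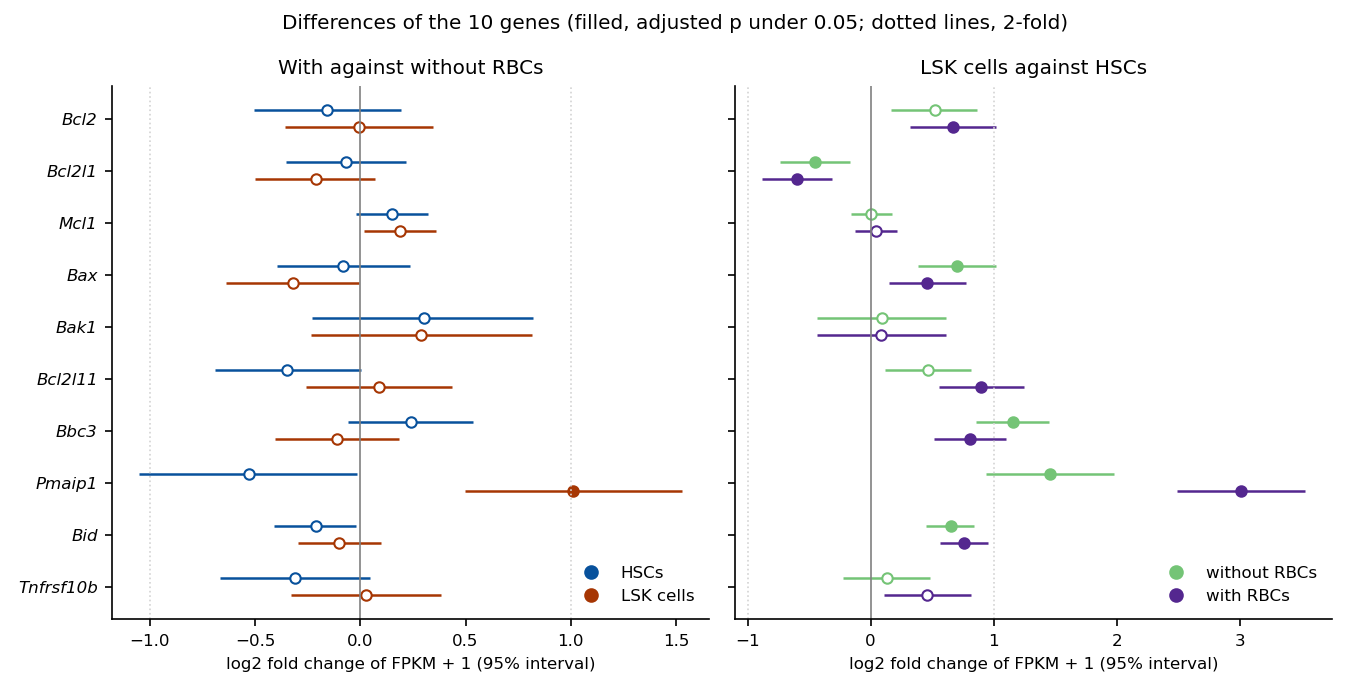
Log2 fold changes of FPKM + 1 with 95% intervals for the 10 genes, with against without RBCs on the left (HSCs and LSK cells) and LSK cells against HSCs on the right (without and with RBCs); filled points had an adjusted p under 0.05 and dotted lines mark 2-fold. On the left only Pmaip1 in LSK cells is filled, at 1.01, and on the right Pmaip1 with RBCs lies farthest from 0, at 3.01.

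For RBCs in HSCs, 0 of the 10 genes were called by limma, against 0.775% of all genes, and 0 passed at any fold (2.53% of all genes). At an unadjusted p under 0.05 there were 2 genes, Pmaip1 and Bid, against 13.7% of all genes. A test fitted gene by gene passed 0 of the 10, but also 0 of all 12003 genes. The log2 differences of the 10 genes lay between -0.53 and 0.30. In LSK cells, 1 of 10 was called (1.01% of all genes) and the same gene, Pmaip1, was the 1 that passed at any fold (3.45%), while 3 genes, Mcl1, Bax and Pmaip1, had an unadjusted p under 0.05 (18.6%). The log2 differences of the other 9 genes lay between -0.32 and 0.29. The 2 libraries with RBCs did not overlap those without for 6 of 10 genes in HSCs (41.7% of all genes) and for 6 of 10 in LSK cells (50.7%). For 3 of 10 genes, Bcl2l11, Bbc3 and Pmaip1, the libraries were apart in both cell types and in opposite directions, as for 7.8% of all genes. At any fold, 304 of all genes in HSCs became 114 without the second library cultured alone and 103 and 139 without the first and second with RBCs, and 414 in LSK cells became 134 and 152 without the first and second library cultured alone and 94 and 113 without the first and second with RBCs. For the difference between the RBC effects, 0 of 10 genes were called (0.108% of all genes), and Pmaip1 alone had an unadjusted p under 0.05 (12.5% of all genes).

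Among genes of RBCs (8 of 10 listed genes present, 6 tested), 3 were called higher with RBCs in HSCs and 1 in LSK cells. Hba-a1, an alpha globin gene, was at 0.0826 and 1.4 FPKM in HSCs without RBCs and 116 and 88.7 with RBCs (log2 5.99, adjusted p = 3.8e-05). In LSK cells it was at 0.864 and 1.53 FPKM without and 32.9 and 43.1 with RBCs (log2 4.16, adjusted p = 4.7e-04). Hbb-b1, a beta globin gene, and Alas2, an enzyme of heme synthesis, were called in HSCs as well (log2 3.97, adjusted p = 4.0e-04, and log2 1.43, adjusted p = 0.017). In LSK cells Hbb-b1 was instead lower with RBCs, at 0.907 and 2.12 FPKM without and 0.0438 and 0.0145 with them. Hbb-bs was called in neither cell type. It was at 0.0123 and 0.0386 FPKM in HSCs without and 0.00753 and 19.1 with RBCs. In LSK cells Hbb-bs was at 0.00522 and 0.172 FPKM without and 18.9 and 19.4 with RBCs. Hbb-b2 did not pass, with log2 differences of -1.14 in HSCs (adjusted p = 0.16) and -0.71 in LSK cells (adjusted p = 0.31). Slc4a1, the anion exchanger of the RBC membrane, was listed at 0 in 7 of 8 libraries. Globin genes have near-identical copies among which reads may be shared. The part of RBC transcripts in the values with RBCs was not tested.

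Averaged over both cultures, a comparison added after the data had been seen, 7 of the 10 genes passed the adjusted p at any fold between LSK cells and HSCs, against 32.9% of all genes. The 4 LSK libraries did not overlap the 4 HSC libraries for the same 7 genes, Bcl2, Bcl2l1, Bax, Bcl2l11, Bbc3, Pmaip1 and Bid, against 27.3% of all genes. Of these, 6 were higher in LSK cells (13.6% of all genes) and 1, Bcl2l1, was lower (13.7%).

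The relation of the genes to each other followed the cell type. The ratio of Bcl2 to Bcl2l1 FPKM was 0.725 to 0.868 in the 4 HSC libraries and 1.54 to 1.89 in the 4 LSK libraries, so that the order of the survival genes was turned. Summed over Bcl2, Bcl2l1 and Mcl1, the level was nevertheless 100 to 115 FPKM in all 8 libraries. Mcl1 made up 52.7% to 64.0% of this sum, Bcl2 15.4% to 21.8% in HSCs and 25.6% to 29.4% in LSK cells, and Bcl2l1 20.5% to 25.1% and 13.5% to 17.8%.

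**Figure D3:**
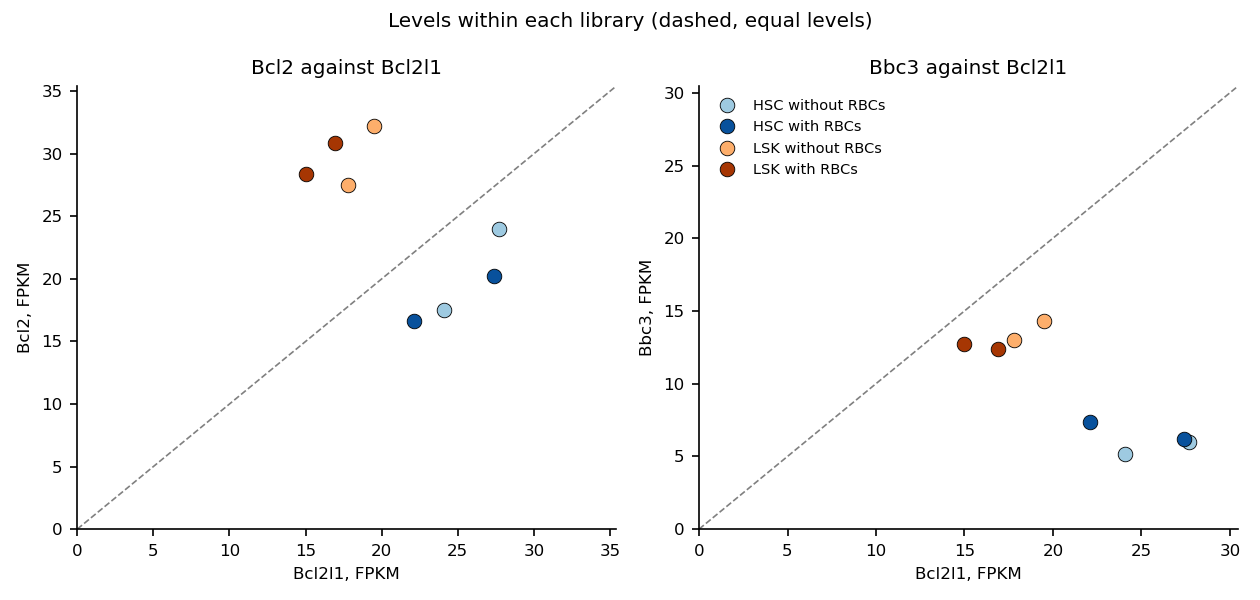
FPKM of Bcl2 (left) and Bbc3 (right) against FPKM of Bcl2l1, with 1 point per library coloured by group and a dashed line of equal levels. On the left the 4 HSC libraries lie below the line, with ratios of 0.725 to 0.868, and the 4 LSK libraries above it, with ratios of 1.54 to 1.89.

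The summed level of the 4 BH3-only genes was 50.7 to 62.1 FPKM in HSC libraries and 97.7 to 111 FPKM in LSK libraries. Bid supplied 79.5% to 81.8% of it in HSCs and 74.1% and 74.8% in LSK cells without RBCs. In LSK cells with RBCs, the share of Bid was 65.9% and 67.9% and that of Pmaip1 18.4% and 16.0%, compared with 8.07% and 8.6% without RBCs and 1.78% to 4.9% in HSCs. The ratio of Pmaip1 to Mcl1, its main partner, was 0.0131 to 0.0483 in HSCs, 0.131 and 0.165 in LSK cells cultured alone and 0.301 and 0.252 in those on RBCs. Bbc3 stood at 0.215 to 0.333 of the Bcl2l1 level in HSCs and at 0.729 to 0.847 in LSK cells. The ratio of Bax to Bcl2l1 was 7.2 to 8.41 in HSCs and 16.3 to 18.1 in LSK cells, whereas that of Bax to Bcl2 overlapped between them, at 9.69 to 10.5 and 8.78 to 11.1. These ratios and shares are of transcript levels and were not tested.

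In order of mean FPKM, HSCs had Bax, Mcl1, Bid, Bcl2l1, Bcl2 and Bbc3 at the top in both cultures. Next came Tnfrsf10b, Bcl2l11 and Pmaip1, whose libraries overlapped each other, and Bak1, which overlapped Pmaip1 with RBCs. In LSK cells the order was Bax, Bid, Mcl1, Bcl2, Bcl2l1, Bbc3, Pmaip1, Bcl2l11, Tnfrsf10b and Bak1 without RBCs, with no overlap between neighbours. With RBCs, Pmaip1 moved to the 5th place and overlapped Bcl2l1, and the rest of the order was kept. Over the 8 libraries, Pearson's r of log2(FPKM + 1) was 0.944 between Bcl2 and Bid, 0.942 between Bcl2 and Bax and 0.938 between Bcl2l11 and Bid, and -0.872 between Bcl2l1 and Bbc3. These coefficients describe 8 points in 4 groups of 2 and largely follow the split between the cell types.

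Around these 10 genes, 65 further cell death genes were looked up in 7 lists, of which 57 passed the filter. With RBCs, 1 of the 57 passed the adjusted p in HSCs and 1 in LSK cells (1.75% in both, against 2.53% and 3.45% of all genes). The gene in HSCs was Bnip3, a mitochondrial protein of hypoxia and mitophagy, which fell from 69.0 ± 3.9 to 50.3 ± 4.07 FPKM (log2 -0.45, adjusted p = 0.032). The gene in LSK cells was Myc, which fell from 275 ± 8.24 to 216 ± 3.2 FPKM (log2 -0.34, adjusted p = 0.030). Between LSK cells and HSCs, 8 of the 57 passed without RBCs, 7 higher and 1 lower (14.0%, against 14.2% of all genes), and 11 with RBCs, 6 higher and 5 lower (19.3%, against 24.4%). These shares were close to or below those of all genes.

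Of 9 other death members of the Bcl2 family, 6 were tested. Bok, an effector-like member, was called lower in LSK cells with RBCs, at 3.66 and 1.06 FPKM against 14.0 and 12.3 FPKM in HSCs (log2 -2.19, SE 0.361, adjusted p = 0.0029). Without RBCs it was at 4.3 and 8.57 FPKM in LSK cells and 12.8 in both HSC libraries, and did not pass the test. In the cultures with RBCs, Bad, a BH3-only member, was lower in LSK cells than in HSCs (log2 -0.24, adjusted p = 0.047). In the cultures without RBCs, Bcl2l14 was higher in LSK cells than in HSCs (log2 0.98, adjusted p = 0.017) and Bnip3 lower (log2 -0.37, adjusted p = 0.023). None of the 3 tested of the 5 other survival members passed in any of these comparisons, and Bcl2a1a, Bcl2a1b and Bcl2a1d are near-identical copies whose reads may be shared.

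Among 5 inhibitors of caspases, Birc3 was higher in LSK cells than in HSCs without RBCs (log2 0.44, adjusted p = 0.040) and with RBCs (log2 0.62, adjusted p = 0.0062), and so was Birc2, by 0.29 (adjusted p = 0.044) and 0.32 (adjusted p = 0.020). Birc5, which encodes survivin and serves mainly in cell division, was lower in LSK cells with RBCs, at 66.0 and 47.7 FPKM against 110 and 112 FPKM in HSCs (log2 -0.97, adjusted p = 0.0044). Birc6 was higher in LSK cells than in HSCs in the cultures with RBCs (log2 0.45, adjusted p = 0.029) and Xiap passed no test. Of 16 genes of the death receptor pathway, 14 were tested. Tnfrsf1b, the second TNF receptor, was higher in LSK cells in both cultures (log2 0.62, adjusted p = 0.0058, and log2 0.82, adjusted p = 9.2e-04). In the cultures without RBCs, Tnfrsf21 was also higher in LSK cells (log2 0.37, adjusted p = 0.035). In the cultures with RBCs, Tnfrsf11b, which encodes the soluble TRAIL decoy osteoprotegerin, was lower in LSK cells (log2 -0.82, adjusted p = 0.026) at levels of at most 1.5 FPKM, and Cflar, the inhibitor of caspase 8 at death receptors, was higher there (log2 0.43, adjusted p = 0.017).

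Among 10 tested of 11 transcription factors known to act on Bcl2 family genes, Ddit3, the endoplasmic reticulum stress factor Chop, was higher in LSK cells without RBCs (log2 0.62, adjusted p = 0.0026) and with RBCs (log2 0.58, adjusted p = 0.0024). Its FPKM was 26.9 ± 0.485 in LSK cells and 17.1 ± 0.36 in HSCs without RBCs, and 24.4 ± 1.85 and 16.0 ± 0.48 with RBCs. Myc was higher in LSK cells without RBCs (log2 0.26, adjusted p = 0.034) and E2f1 was lower in LSK cells than in HSCs with RBCs (log2 -0.46, adjusted p = 0.036). Of the 12 genes of the apoptosome and caspases, none passed for RBCs in either cell type or between the cell types within either culture, nor did any of the 7 genes for turnover of Mcl1, Bcl2l11 and Bid proteins. Averaged over both cultures, Apaf1, the scaffold of the apoptosome, was higher in LSK cells (log2 0.45, adjusted p = 0.029) and Diablo, which opposes inhibitors of caspases, lower (log2 -0.17, adjusted p = 0.029). This comparison was added after the data had been seen, and 32.9% of all genes passed it at any fold. Genes of the other lists are not given for it. Median log2 differences between LSK cells and HSCs were -0.02 without and 0.01 with RBCs for the apoptosome and caspases.

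**Figure D4:**
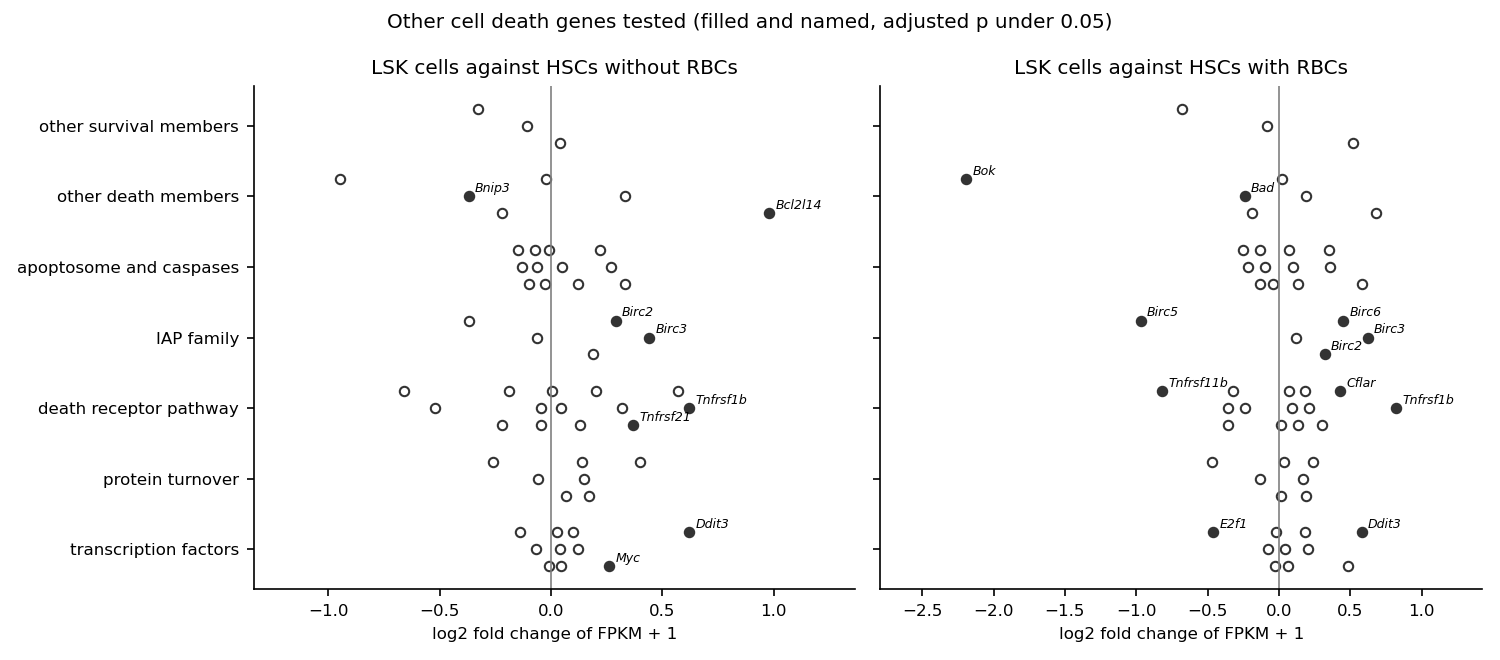
Log2 fold changes of FPKM + 1, LSK cells against HSCs, of the 57 tested genes in 7 lists of other cell death genes, without RBCs (left) and with RBCs (right); each point is a gene, and points with an adjusted p under 0.05 are filled and named. The right panel has Bok at -2.19 and Birc5 at -0.97 on the lower side and Tnfrsf1b at 0.82 on the higher side, and no gene of the apoptosome and caspases is filled.

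The genes whose log2(FPKM + 1) had the highest Pearson's r with each gene over the 8 libraries were Klhl24 (0.995), Gria3 (0.99) and Hdc (0.987) for Pmaip1, and Tespa1 (0.989), Clec12a (0.986) and Ttyh2 (0.985) for Bbc3. For Bid they were Pdcd6ip (0.991), Cd48 (0.99) and Hes6 (0.988), and for Bcl2l11 Prr14 (0.99), Palm (0.989) and Sulf2 (0.987). Bcl2 was most like Man1a (0.988), Pink1 (0.982) and Brd8 (0.98), Bax most like Rptor (0.991), Aspscr1 (0.979) and Safb2 (0.973), and Bcl2l1 most like Col4a2 (0.987), Pbx3 (0.98) and Etv5 (0.978). The coefficients rest on 4 groups of 2 libraries and were chosen as the highest among 12003 genes, so they are given as a description.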

How the data were processed

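RNA from 8 libraries (HSCs and LSK cells, with and without RBCs, 2 libraries per group) was made into cDNA with a SMART-Seq kit and into libraries with Nextera XT. The authors deposited 1 FPKM value per gene symbol and library, already scaled by transcript length and library size, with replicates kept apart. The submitters' processing notes name TopHat2 2.1.1, Bowtie2 2.2.8, SAMtools 0.1.18, Cuffdiff 2.2.1 and mm10, without their roles. The gene annotation and the use of strand are not given in the sources used here. No count test was run on these values, and reads of overlapping genes may have been divided between them.

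Values were taken as log2(FPKM + 1), and 12003 genes that reached 1 FPKM in 2 or more libraries were kept. The 4 group means were fitted with limma 3.58.1 (R 4.3.3) and its mean-variance trend (4 residual degrees of freedom, prior of 5.18), and p-values were adjusted by Benjamini-Hochberg over all genes tested. A two-sided exact permutation test of 2 against 2 libraries has a smallest possible p of 0.333, and the calls depend on the spread estimated over all genes. Values of 83.1% of 7378 low genes were whole multiples of a step (tolerance 0.02 steps), which gave relative depths and lower bounds of reads, for counting error only.

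The 10 genes and the lists around them were chosen with earlier results of these data known. All 10 were named in every comparison, and of the lists up to 2 genes per list and comparison past the adjusted p, and all past 2-fold. Birc6, Cflar, Xiap, Tnfsf10, Apaf1 and Diablo were named after their values were seen. So were the marker genes of the sort, of RBCs and of other cell types. Alternatives covered the pseudocount, filter, scaling, samples in the fit, replicate block, trend, threshold, a per-gene Student test and each library left out. The averages over cell types and over cultures were added after the data had been seen. Positions came from GENCODE M21 and promoters from RefSeq.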

Additional observations from a re-analysis of the deposited data

Results flagged for a closer look

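In 3 of the 10 genes both HSC libraries with RBCs lay to one side of both without RBCs and both LSK libraries lay to the opposite side, as for 7.8% of all 12003 genes tested. The interaction was tested with limma for each. For Pmaip1 the RBC effect in HSCs minus that in LSK cells was -1.55 on the log2 scale (SE 0.325, adjusted p = 0.14). For Bcl2l11 it was -0.436 (SE 0.218, adjusted p = 0.45), and for Bbc3 it was 0.349 (SE 0.185, adjusted p = 0.47). None of the 3 passed the test, with 2 libraries per group.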

How the results depend on the processing

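Of 530 log2 differences of the 10 genes under settings that kept all libraries, 512 kept their direction and their side of the threshold. The other 12 lost and 2 gained the call, and 4 changed direction. Most of the 530 belong to differences that were not called in the Results and so had no call to lose. Calls there were 1 for RBCs in LSK cells and, between cell types, 2 without and 1 with RBCs. Among the 10 genes, the 1 call for RBCs in LSK cells (Pmaip1) became 0 with a pseudocount of 0.1 (adjusted p = 0.12) or 0.5 (0.078), without a filter (0.15), with a filter in 1 library (0.052), with equal medians (0.052), without the trend (0.095), with a Student test (0.37) and with quantile normalization, where its log2 difference was 0.99. Without 1 library the count was 0 to 1 and the log2 difference 0.88 to 1.15, and for these fits the lone library left in a group was assumed to vary like the other groups. With a replicate block it was 0 as well (adjusted p = 0.054), and Bcl2l1 without RBCs (0.056) and Bax with RBCs (0.059) lost their adjusted p between cell types. Without the trend, Bcl2l1 without RBCs (adjusted p = 0.078) and Bax with RBCs (0.094) lost and Bcl2l11 without RBCs (0.039) and Tnfrsf10b with RBCs (0.027) gained their adjusted p between cell types. Correlations between the deviations of same-numbered libraries from their group means lay between -0.067 and 0.095. The labels do not say whether the replicate numbers pair the samples, and these correlations cannot show how the samples were prepared. Between LSK cells and HSCs, the count of 2 without RBCs became 5 at any fold and 0 with a Student test, and that of 1 with RBCs became 2 with either pseudocount (Bcl2l11 added), 7 at any fold and 0 with a Student test. At any fold, no filter left 3 (without RBCs) and 5 (with RBCs), and equal summed FPKM left 4, all higher in LSK cells, and 7. With all libraries kept, direction changed for Tnfrsf10b with RBCs in LSK cells under quantile normalization (-0.0402), Bcl2 there with equal summed FPKM (0.0284), and Mcl1 between cell types without RBCs under quantile normalization (-0.00491) and equal medians (-0.0243). Without 1 library, differences with RBCs in HSCs ran from -0.376 to 0.0629 for Bcl2, -0.215 to 0.0812 for Bcl2l1 and -0.294 to 0.13 for Bax, and in LSK cells from -0.118 to 0.106 for Bcl2 and -0.078 to 0.132 for Tnfrsf10b. The difference between the RBC effects ran from -0.37 to 0.0687 for Bcl2, -0.122 to 0.043 for Mcl1 and -0.262 to 0.269 for Bak1. Between cell types, Mcl1 ran from -0.0217 to 0.0352 and Bak1 from -0.176 to 0.355 without RBCs, and Mcl1 from -0.0363 to 0.128 and Bak1 from -0.142 to 0.314 with RBCs. Over all genes, calls for RBCs were 93 in HSCs and 121 in LSK cells, and 50 and 70 without a filter, 304 and 414 at any fold and 0 with a Student test, which passed 0 of all genes between cell types too. In LSK cells they were 72, 64 and 74 without the first LSK library cultured alone and the first and second with RBCs. The 13 calls for the difference between effects became 2 without a filter, 20 with quantile normalization, 8 with a replicate block, 1 without the trend, 33 at an adjusted p under 0.1 and 7 without the second LSK library with RBCs or the first HSC library cultured alone. Between cell types, 319 calls without RBCs became 485 with a pseudocount of 0.1 and 1707 at any fold, and 433 with RBCs became 2923. The causes were not tested. Absolute depth is unknown, which limits what can be said of Bak1, Pmaip1 in HSCs and Tnfrsf10b.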
